A study of Mus musculus with 3 samples.

Results

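The chromatin accessibility of 3 mouse genes that encode the main secreted peptides of beta cells was examined: Ins1 and Ins2, which encode insulin, and Iapp, which encodes islet amyloid polypeptide. Each gene was taken with its whole annotated body and 20 kb on each side, and every accessible region called there was kept. This gave 39 of the 362977 peaks in 3 lists, for 3 of the 22359 protein-coding genes of the annotation. Mice carry a pair of insulin genes on different chromosomes. Ins2 is the ancestral form and shares its gene structure with the insulin genes of other mammals, whereas Ins1 is a retrotransposed copy that kept a working promoter. Both genes are transcribed at very high levels in beta cells under homeodomain, basic helix-loop-helix and large Maf factors such as Pdx1, Neurod1 and Mafa. Islet amyloid polypeptide, or amylin, is packed into the same granules as insulin and released with it.

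The data were ATAC-seq peak lists, in which regions of open chromatin are found by the insertion of sequencing adapters by a transposase. Cells were dissociated from purified islets of Langerhans of mice whose strain label reads C5LBl6. One library each came from wild type mice (WT), from mice 1 week after Taf4 had been inactivated (Taf4 KO 1 week) and from mice 5 weeks after it (Taf4 KO 5 weeks). Taf4 is a subunit of TFIID, the general transcription factor that recognises core promoters. According to the study, adult animals with floxed Taf4 alleles carried a Cre-ERT2 recombinase under an insulin (Ins1) promoter and were given tamoxifen, and the controls without floxed alleles carried the same transgene and received the same drug, although their genotype label reads only wild type. By this account the transgene brought a further copy of Ins1 promoter sequence into all groups, and its part in reads placed at Ins1 was not tested. The driver is active in beta cells, so that other islet cells kept Taf4. With 1 library per group no replicate error could be estimated, and every difference below is one between libraries. In cells from whole islets, fewer beta cells and less accessibility per beta cell cannot be told apart.

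In all, 60898 peaks were called in WT, 150354 after 1 week and 151725 after 5 weeks, with about the same lowest -log10 q (1.02, 1.01 and 1.01). Depth was not equal. The background floor was taken as the 1st percentile of the local read backgrounds that the caller's own values imply. It was 3.66 reads in WT, 6.45 reads after 1 week and 9.38 reads after 5 weeks. Peak values were therefore read as fold over local background, as percentiles within their own list, or as multiples of this floor. Among marker genes, the number with a peak at the start in WT, after 1 week and after 5 weeks was 3, 4 and 4 of 4 for alpha cells, 1, 2 and 3 of 3 for delta cells, 0, 0 and 0 of 5 for acinar cells and 1, 1 and 1 of 3 for duct cells. For endothelial cells it was 1, 1 and 2 of 3, for immune cells 0, 1 and 0 of 3, and for stellate cells and fibroblasts 0, 0 and 2 of 3. Of all protein-coding genes, 59.0% had such a peak in WT, 55.9% after 1 week and 65.6% after 5 weeks. The part of these other cell types in the peaks described below, and of depth in these counts, was not tested.

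Ins1 (ENSMUSG00000035804) lies on the plus strand of chromosome 19 of mm9, from 52338813 to 52339946, with 2 exons and no other gene within its window. Ins2 (ENSMUSG00000000215) is transcribed from the minus strand of chromosome 7, between positions 149864561 and 149885415. Its main transcript has 3 exons and starts at 149865631, and the much longer annotated body is due to a single transcript whose first exon lies far upstream. The Ins2 window also reaches Igf2, which encodes an insulin-like growth factor, and the long noncoding RNA Igf2as. Iapp (ENSMUSG00000041681) lies on the plus strand of chromosome 6, from 142246943 to 142252481, with 3 exons, and sits entirely inside Slco1a5, a solute carrier gene of the opposite strand.

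Sequences are shown for the stretch before the start of Ins1 and of Iapp, the 2 genes with an entry in the promoter table named below. The Ins2 start also had a peak in every list but no such entry, so its stretch is not shown. Further sequences are the central 300 bases of 3 distal regions that ranked high in WT and are described below. All sequences were read from mm9 and are printed in the direction of transcription of the gene. Capitals mark TAAT on either strand, the core of homeodomain sites such as those bound by Pdx1, and CANNTG, the E box bound by basic helix-loop-helix factors such as Neurod1. The RefSeq promoter table for GRCm38.p6 matched 2 of the 3 genes, Ins1 and Iapp, and its starts lay -26 bp and 2 bp from the annotated ones.
Ins1, -250 to -1 (chr19:52338563-52338812, + strand): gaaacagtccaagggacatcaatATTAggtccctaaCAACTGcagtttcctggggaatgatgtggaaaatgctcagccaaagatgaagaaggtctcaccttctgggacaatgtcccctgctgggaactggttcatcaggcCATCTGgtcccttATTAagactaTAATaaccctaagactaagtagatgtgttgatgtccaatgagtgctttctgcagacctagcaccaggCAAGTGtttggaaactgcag
Iapp, -250 to -1 (chr6:142246693-142246942, + strand): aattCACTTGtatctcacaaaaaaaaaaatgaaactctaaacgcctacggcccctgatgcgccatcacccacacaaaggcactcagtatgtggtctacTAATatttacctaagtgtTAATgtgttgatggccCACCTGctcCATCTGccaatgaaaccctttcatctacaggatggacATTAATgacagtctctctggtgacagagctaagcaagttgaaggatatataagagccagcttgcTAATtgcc
Ins1 distal region at -11.8 kb (chr19:52326805-52327104, + strand): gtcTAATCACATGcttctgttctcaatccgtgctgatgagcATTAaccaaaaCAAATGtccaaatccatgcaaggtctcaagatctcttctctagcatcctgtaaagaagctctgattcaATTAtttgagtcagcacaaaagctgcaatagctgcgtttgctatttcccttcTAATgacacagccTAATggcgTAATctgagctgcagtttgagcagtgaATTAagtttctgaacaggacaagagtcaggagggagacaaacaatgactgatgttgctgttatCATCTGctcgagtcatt
Iapp distal region at -16.3 kb (chr6:142230440-142230739, + strand): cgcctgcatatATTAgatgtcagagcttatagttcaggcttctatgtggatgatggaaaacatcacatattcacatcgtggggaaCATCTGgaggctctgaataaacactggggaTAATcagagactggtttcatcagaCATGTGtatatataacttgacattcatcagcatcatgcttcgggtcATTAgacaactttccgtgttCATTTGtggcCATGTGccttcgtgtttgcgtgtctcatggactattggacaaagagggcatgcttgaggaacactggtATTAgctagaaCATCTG
Iapp distal region at -8.75 kb (chr6:142237978-142238277, + strand): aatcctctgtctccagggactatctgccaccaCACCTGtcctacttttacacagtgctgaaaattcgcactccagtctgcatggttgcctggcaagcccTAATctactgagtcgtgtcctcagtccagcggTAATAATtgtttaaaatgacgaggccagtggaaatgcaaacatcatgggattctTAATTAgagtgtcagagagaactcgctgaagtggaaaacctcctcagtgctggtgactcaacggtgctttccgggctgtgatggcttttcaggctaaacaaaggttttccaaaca

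Both strands were searched for 6 motifs. Besides the homeodomain core TAAT and the E box CANNTG, these were the E box form CATCTG, whose matches are also counted under the former, the TATA box TATAAA of core promoters, the letters TGACG of cAMP response elements and, for large Maf factors, the core TGCTGA of their sites. At least 1 match was found before 51.1% of all starts for the homeodomain core and before 63.2% for the E box. The stretch before Ins1 held 3 TAAT and 3 CANNTG matches, counts that 16.0% and 10.2% of all 250-base stretches before protein-coding starts reached or passed. Before Iapp there were 5 TAAT matches, reached by 5.45% of such stretches, and 3 CANNTG matches. One of the E boxes before each gene read CATCTG, a form present in 12.6% of promoters. TGACG and TGCTGA had 0 matches before both starts. The distal regions were set against the 300-base centres of 35236 regions called in all 3 lists, and their counts were mixed. The distal Ins1 region held 7 TAAT matches, a count that 2.83% of regions reached or passed, 2 TGCTGA matches (4.41%) and 3 E boxes (27.7%). Of the Iapp regions, the one at -16.3 kb held 5 CANNTG matches (4.79%), 2 of them CATCTG (4.43%), beside 4 TAAT matches (15.3%), and the one at -8.75 kb held 5 TAAT matches (8.97%), 1 TGACG match (19.0%) and, like 79.1% of regions, at least 1 E box. Each Iapp region held 1 TGCTGA match, found at least once in 26.2% of regions. As exactly these letters, TATAAA was found in none of the 5 sequences. Other forms of the TATA box were not searched for, nor were bases after the annotated starts, so these promoters cannot be said to lack one. The counts of the other motifs are likewise those of the 250 bases before the annotated start and not of the whole promoter. These matches are letters in a window and were not tested as binding sites.

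At the 3 loci together there were 14 peaks in WT, 9 after 1 week and 16 after 5 weeks. The 1 week list thus held 0.643 times as many peaks at these loci as WT, although it was the longer list by far, and the 5 weeks list 1.14 times as many. In lists of equal length the numbers were 14, 8 and 11, and after scaling to the WT background 14, 8 and 9, so that the 5 weeks list then held fewer than WT. Over the windows of all protein-coding genes the summed number of peaks was 1.27 times the WT number after 1 week and 1.61 times after 5 weeks. The covered length at the 3 loci was 13564 bp in WT, 10413 bp after 1 week and 18669 bp after 5 weeks. It was thus 0.768 and 1.376 times that in WT. Over the windows of all protein-coding genes the summed length was 1.2 and 1.685 times that in WT, so the rise after 5 weeks was smaller at these loci.

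Gene by gene, the order was not the same. Around Ins1 there were 4 peaks in WT, 3 after 1 week and 4 after 5 weeks, covering 4832, 4123 and 5646 bp. Ins2 had 3 peaks in WT, 2 after 1 week and 6 after 5 weeks, covering 3975, 1640 and 5784 bp. Around Iapp 7, 4 and 6 peaks were called, covering 4757, 4650 and 7239 bp. All 3 windows held fewer peaks after 1 week than in WT and 0 held more, while of the 18248 gene windows with a WT peak 52.7% held fewer and 25.7% more. After 5 weeks the Ins2 window held more peaks than in WT, as did 50.6% of those windows, and the Iapp window held fewer, as did 18.5%. These directions depended on the setting. With a -log10 q minimum of 3 each window held as many peaks after 1 week as in WT (3 around Ins1, 2 around Ins2 and 3 around Iapp), and with flanks of 10 kb the Ins2 window held 2 after 1 week and 1 in WT. After 5 weeks the Iapp window held 4 peaks against 3 in WT with that minimum, and 8 in each with flanks of 50 kb.

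**Figure D1:**
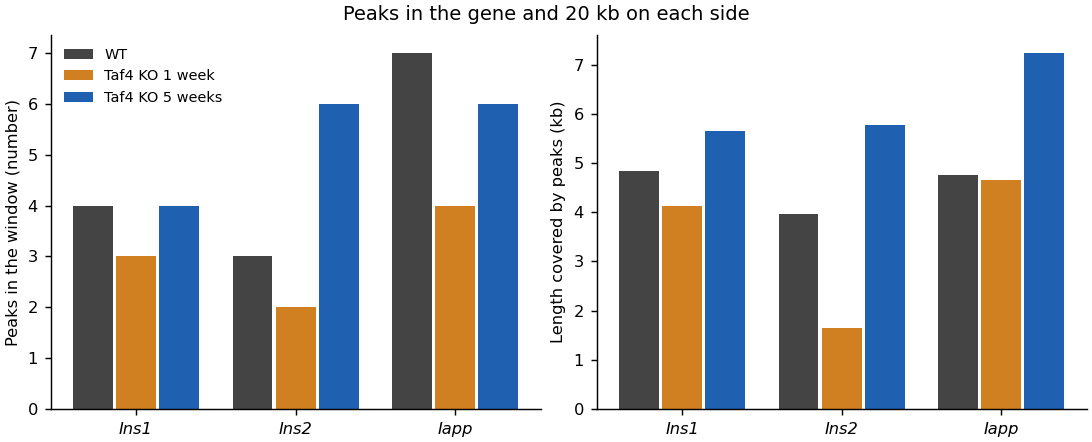
Number of peaks (left) and length covered by peaks in kb (right) in the gene and 20 kb on each side, with 1 bar per library for Ins1, Ins2 and Iapp. The 1 week bar is the lowest for each gene, and the 5 weeks bar is the highest in covered length, reaching 7.24 kb around Iapp. Over all gene windows the summed covered length was 1.2 times that in WT after 1 week and 1.685 times after 5 weeks.

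Merged from 1 bp of overlap, the 39 peaks formed 18 regions. Of these, 8 were called in all 3 lists, 3 in WT and after 5 weeks, 2 in WT alone and 5 after 5 weeks alone, and 0 regions were called after 1 week without a peak in both other lists. Every 1 week peak at these genes (9 of 9) therefore lay in a region that was also accessible in WT and after 5 weeks. Of the 1 week peaks in all gene windows, 40.7% were overlapped in both other lists, and of the regions there, 20.2% were called only after 1 week and 14.3% after 1 week and 5 weeks. Regions called in all 3 lists made up 24.1% of those in gene windows, in WT and after 5 weeks 7.73%, in WT and after 1 week 0.459%, in WT alone 7.27% and after 5 weeks alone 25.8%. Seen from WT, 9 of the 14 peaks (64.3%) were overlapped after 1 week and 12 (85.7%) after 5 weeks, near the shares for WT peaks in all gene windows, 61.8% and 80.5%. Seen from the Taf4 KO lists, all 9 peaks of 1 week met a peak of WT and one of 5 weeks, against 41.5% and 65.3% in gene windows. Of the 16 peaks of 5 weeks, 11 (68.8%) met one of WT and 8 (50%) one of 1 week, against 44.2% and 53.5%. Of the 18 regions, 5 were called in Taf4 KO lists without WT.

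**Figure D2:**
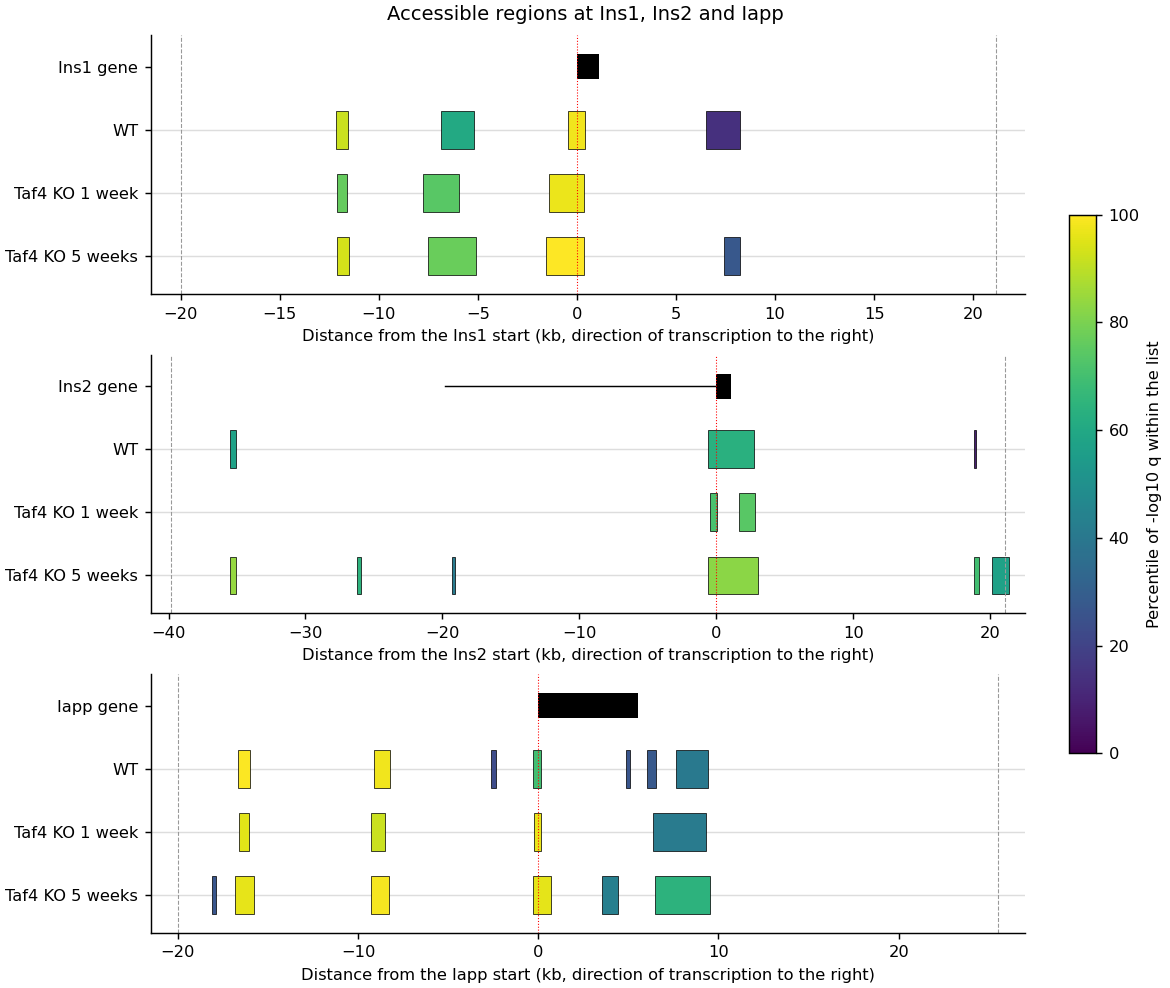
Maps of the Ins1, Ins2 and Iapp windows, with distance from the start of the main transcript in kb on the horizontal axis and 1 row per library. Boxes are peaks to scale, coloured by the percentile of their -log10 q within their own list, black boxes are the genes (for Ins2 the thin line is the long transcript), the dotted line is the start and the dashed lines are the window edges. The split of the Ins2 peak after 1 week, and the wider peak before Ins1 at 1 and 5 weeks, can be seen.

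A peak over the start was called in all 3 lists for 3 of 3 genes, as it was for 50.4% of protein-coding genes. Of all genes, 59.0% had such a peak in WT, 55.9% after 1 week and 65.6% after 5 weeks. A start peak was one that overlapped the stretch from 1000 bp before to 100 bp after an annotated start. The 11261 genes with a start peak in every list served as the background for the values that follow. The genes differed in where this peak ranked, in how wide it was and in how both changed.

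The Ins1 start peak was among the strongest of the genome. By -log10 q it ranked 1223 of the WT list, 4320 of the 1 week list and 215 of the 5 weeks list, with values of 25.3, 13.0 and 40. Among start peaks it stood at the 89.8, 84.2 and 98.6 percentile. Its fold over local background was 4.73 in WT, 3.74 after 1 week and 4.56 after 5 weeks. The fold after 1 week was 0.790 times that in WT, close to the median of 0.813 over all genes, and after 5 weeks 0.965 times, with a median of 0.905. The fold of this promoter thus moved much as that of other genes did.

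The extent of the Ins1 peak changed more. In WT it was 859 bp wide and ran from -450 to 408 bp of the start. After 1 week it was 1779 bp wide, from -1427 to 351 bp, and after 5 weeks 1918 bp, from -1547 to 370 bp. The downstream edge moved little while the upstream edge lay about a kilobase further out in both Taf4 KO lists. The width was 2.07 times that in WT after 1 week, a higher ratio than for 96.7% of genes, and 2.23 times after 5 weeks, a higher ratio than for 95.9%. At least a 2 times wider start peak than in WT was found for 3.9% of genes after 1 week and 5.98% after 5 weeks. In the added upstream stretch, 977 positions after 1 week and 1097 after 5 weeks, every position started a 40-base sequence found nowhere else in mm9. That reference does not hold the transgene, so copies of this stretch brought by the transgene would not be seen.

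Ins2 had a broad and weak peak over the whole gene. In WT a single peak of 3390 bp, from 149862885 to 149866274, covered the whole main transcript, with 2.44 for its fold and 5.48 for its -log10 q. After 5 weeks a peak of 3642 bp, from 149862596 to 149866237, did the same, with values of 2.41 and 8.59. After 1 week there were 2 separate peaks, 1 of 495 bp over the start (149865589 to 149866083) and 1 of 1145 bp downstream of the gene (149862823 to 149863967). The stretch of 1621 bp between them, from 149863968 to 149865588, which holds nearly all of the transcribed gene, had no call, and 4.03% of the main transcript was covered.

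Of the 943 WT peaks of at least 2 kb, 16.9% were overlapped by more than 1 peak after 1 week and 10.2% after 5 weeks. For the start peak after 1 week the fold was 2.56 and the -log10 q was 3.05. Fold thus lay within a narrow range in the 3 libraries, while the width after 1 week was 0.146 times that in WT, a lower ratio than for all but 0.551% of genes. In the uncalled stretch 98.3% of positions were unique at 40 bases, and 27 were shared with the Ins1 window. The start peak of Ins2 stayed low among start peaks, at the 14.4 percentile in WT, 13.8 after 1 week and 16.9 after 5 weeks.

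A second measure put the Ins2 values in context. The local background at this peak, taken from the caller's values, was 4.90 times the floor in WT, 1.30 times after 1 week and 2.99 times after 5 weeks, while the median start peak had 2.20, 1.09 and 1.30. Ins2 therefore sat in a stretch of raised background in WT and after 5 weeks, and the 1 week value was 0.266 times that in WT, a lower ratio than for all but 3.39% of genes. The recovered pileup is a read number solved from the mean fold and mean -log10 p of a peak. At Ins2 it was 12.3 times the floor in WT, 3.58 times after 1 week and 7.37 times after 5 weeks. Because fold divides by the local background, a gene with open chromatin over several kilobases can have a low fold with many reads. The 1 week values are those of the narrow start peak, since each value comes from means over the peak as called. All recovered values assume the same read extension in the 3 libraries.

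Iapp went the other way from most genes. Its start peak had a fold of 3.41 in WT, 4.67 after 1 week and 4.84 after 5 weeks. The fold was 1.37 times that in WT after 1 week, a higher ratio than for 99.0% of genes, and 1.42 times after 5 weeks, higher than for 99.5%. A higher fold than in WT was found for 16.7% of start peaks after 1 week and 23.4% after 5 weeks. Both Taf4 KO lists were thus near the top of the distribution at this gene. Its -log10 q, which also grows with depth, was 6.80 in WT, 12.2 after 1 week and 20.2 after 5 weeks.

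Among start peaks the Iapp peak stood at the 19.7 percentile in WT, at 81.2 after 1 week and at 70.5 after 5 weeks. In whole lists it ranked 18322 of 60898, 5148 of 150354 and 5975 of 151725. A rank nearer the top in number than in WT was found for 26.2% of start peaks after 1 week and 27.6% after 5 weeks. The GC content of the 1 Mb around each start was used to sort genes into 5 equal groups, and Ins1 (38.7%) and Iapp (41.4%) fell in the lowest, Ins2 (47.8%) in the second highest. In the lowest group, 10.9% of start peaks had a higher fold after 1 week and 14.5% after 5 weeks, while 44.2% and 29.7% ranked nearer the top. In the group of Ins2 these shares were 21.5% and 28.5% for fold and 18.7% and 28.1% for rank. The part of GC content in the Iapp values was not tested.

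**Figure D3:**
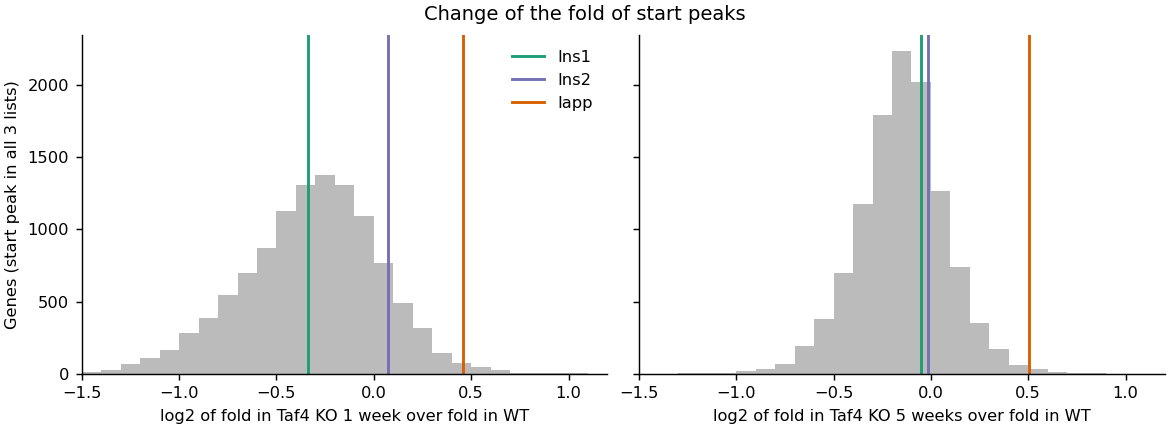
Distribution over 11261 genes of the log2 ratio of the fold of the start peak in each Taf4 KO library to that in WT (left, 1 week, right, 5 weeks), with the number of genes per bin on the vertical axis and a line for each of the 3 genes. Iapp lies in the right tail at both times, Ins1 and Ins2 lie within the bulk of the distribution.

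In width, the Iapp start peak measured 411 bp in WT (-269 to 141 bp), 359 bp after 1 week (-227 to 131 bp) and 1033 bp after 5 weeks (-309 to 723 bp). After 5 weeks it was 2.51 times as wide as in WT, a higher ratio than for 97.3% of genes, the added stretch reaching into the first intron. All of the 582 added positions were unique at 40 bases. The recovered pileup was highest in WT. It was 8.18 times the floor in WT, 5.55 times after 1 week and 6.08 times after 5 weeks, ratios of 0.679 and 0.744, higher than for 83.3% and 85.2% of genes at their start peaks and than for 53.9% and 56.5% of the 36612 regions called in all lists. A higher pileup than in WT, in multiples of the floor, was found for 4.62% of start peaks after 1 week and 2.84% after 5 weeks. The higher value at Iapp was hence one of fold and of rank, not of recovered pileup.

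**Figure D4:**
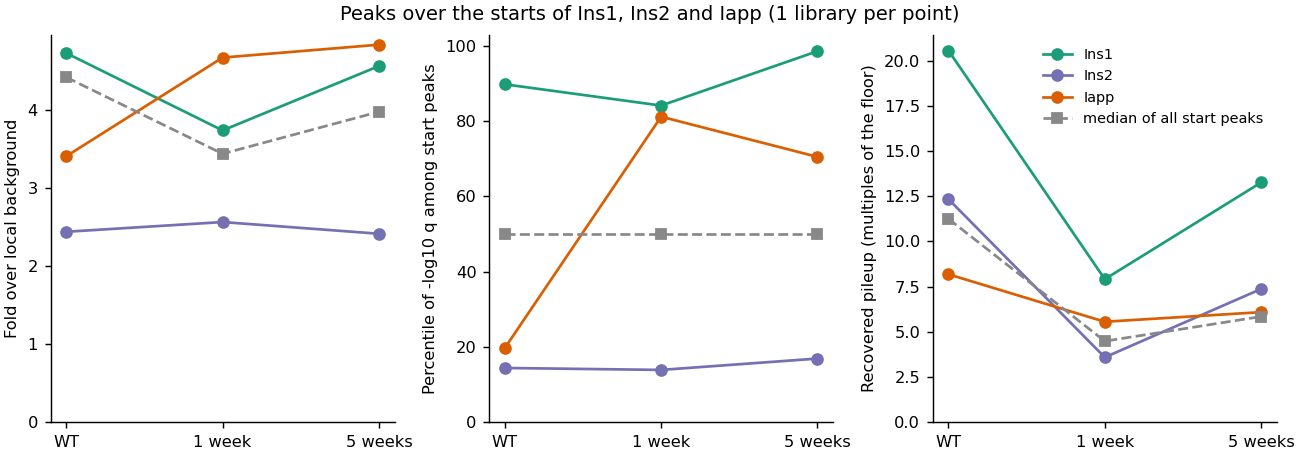
Start peaks of Ins1, Ins2 and Iapp in the 3 libraries, with 1 point per library, as fold over local background (left), percentile of -log10 q among the start peaks of 11261 genes (middle) and recovered pileup in multiples of the background floor (right). Grey squares are the median over those genes. The fold of Iapp is 3.41 in WT and 4.67 and 4.84 in the Taf4 KO libraries, whereas its pileup, and that of Ins1 and Ins2, is highest in WT.

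Away from the starts, the strongest regions lay upstream of Ins1 and Iapp, and they ranked lower after 1 week. The region centred at -11.8 kb from Ins1, between genes, ran from 52326674 to 52327260 in WT and had a fold of 5.33 there, 2.85 after 1 week and 4.10 after 5 weeks. Its percentile among the 36612 regions called in all lists was 87.0 in WT, 26.4 after 1 week and 74.1 after 5 weeks. The ratio of its fold after 1 week to WT, 0.535, was lower than for all but 2.58% of those regions, whose median was 0.895. The distal regions here were described for their high rank in WT, whereas the shared regions were of any WT rank. The part of this choice in the lower values was not tested. This distal region of Ins1 was lower by more than the Ins1 start after 1 week, and its rank in the 5 weeks library was nearer to that in WT.

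Around Iapp, 2 regions inside Slco1a5 introns stood out in WT. The one at -16.3 kb (142230259 to 142230967 in WT) had the highest rank of any WT peak at the 3 loci, 264, with a fold of 6.58 in WT, 4.47 after 1 week and 4.75 after 5 weeks. Its percentile among shared regions was 99.3, 82.7 and 84.4, so that it stayed lower after 5 weeks. Recovered pileup at this region was 19.4 times the floor in WT, 5.28 times after 1 week and 6.27 times after 5 weeks. The ratio after 5 weeks, 0.323, was lower than for all but 0.429% of shared regions, whose median was 0.704. Start peaks, with a median pileup of 11.2 times the floor in WT, had a median ratio of 0.527. The region was described for its high WT rank, and no set of like WT rank was compared. Iapp thus combined a start peak of higher fold with a distal region of lower fold in both Taf4 KO lists.

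The region at -8.75 kb from Iapp (142237801 to 142238715 in WT) had a fold of 6.03 in WT, 3.86 after 1 week and 5.78 after 5 weeks. Its percentile among shared regions was 96.2, 69.4 and 94.9, on that scale the course of the distal Ins1 region and not that of its neighbour. Recovered pileup was 15.4 times the floor in WT, 4.67 times after 1 week and 7.07 times after 5 weeks. The ratio after 5 weeks, 0.46, was lower than for all but 10.7% of shared regions, against 20.8% for the distal Ins1 region (0.527). The return toward WT was thus one of fold and percentile, while pileup stayed well below WT. The remaining shared regions were weaker. At -6.44 kb from Ins1 the percentile was 41.6 in WT, 22.9 after 1 week and 26.1 after 5 weeks, and the broad region at 7.79 kb from the Iapp start, beyond the gene, stood at 20.4, 5.15 and 9.09. The region over Ins2 stood at 45.5, 23.0 and 38.0. The Ins1 start stood at 96.7, 88.5 and 99.4, and the Iapp start at 54.1, 86.4 and 84.0. The tally depended on the scale. Among shared regions, 7 of the 8 had a lower percentile after 1 week than in WT, with the Iapp start as the exception, and 6 had a lower one after 5 weeks, where 49.0% and 51.7% of all shared regions did. By the percentile within the whole list 4 of the 8 were lower after 1 week, the -6.44 kb region of Ins1, the region over Ins2 and the 7.79 kb region of Iapp being higher along with the Iapp start, and 1 of the 8, the -16.3 kb region of Iapp, was lower after 5 weeks. On that scale 19.7% and 9.96% of all shared regions were lower. In recovered pileup all 8 were lower than in WT at both times, as were 84.6% of shared regions after 1 week and 86.6% after 5 weeks.

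**Figure D5:**
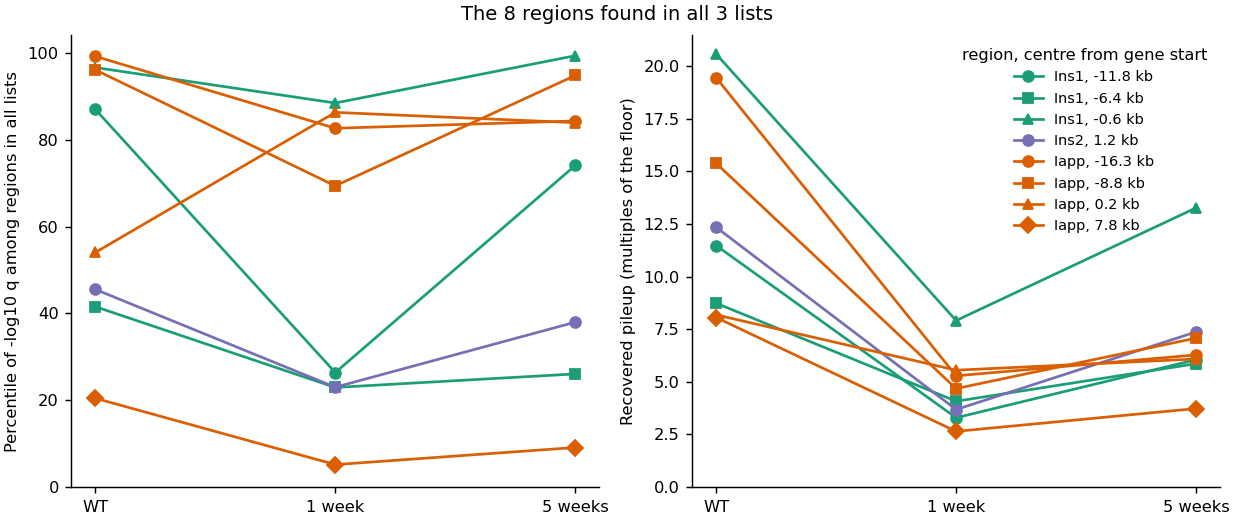
The 8 regions called in all 3 lists, with 1 line per region and 1 point per library, as percentile of -log10 q among the 36612 regions called in all lists (left) and as recovered pileup in multiples of the background floor (right). Colours give the gene, symbols the region, named by the distance of its centre from the start. After 1 week 7 of the 8 lines lie below WT in this percentile (49.0% of shared regions do), and all 8 lie below WT in pileup at both times (84.6% and 86.6% do).

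The 10 regions missing from at least 1 list were mostly weak and narrow. The 3 in WT and after 5 weeks lay at 7.35 kb from the Ins1 start, at -35.3 kb from Ins2 and, at 18.96 kb from Ins2, in an Igf2 intron. The strongest of them, upstream of Ins2, had a fold of 3.71 in WT and 3.58 after 5 weeks, at nearly the same positions (149900739 to 149901123 and 149900727 to 149901121). Those in WT alone lay at -2.49 kb and 4.99 kb from the Iapp start, the latter over an Iapp exon, with a -log10 q of 1.99 and 2.13. Of the 5 after 5 weeks alone, 3 were around Ins2, 1 of them across the window edge in an Igf2 exon, and 2 around Iapp. Their -log10 q ran from 1.64 to 3.55, at the 26.9 to 64.3 percentile of that list, which had the deepest background.

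Genes that work with these loci were counted in the same way, beside 59.0% of all protein-coding genes with a start peak in WT, 55.9% after 1 week and 65.6% after 5 weeks. Of 12 factors that act on insulin promoters, 11 had a start peak in WT, 11 after 1 week and 12 after 5 weeks, the difference being Nkx2-2, a homeodomain factor of beta cells, which was called after 5 weeks alone with a fold of 2.34. The median percentile of the factors called in each list was 74.8, 87.9 and 89.3. Over the 11261 genes with a start peak in every list, a set formed otherwise, the median was 87.1, 89.1 and 92.4. Of 10 genes of prohormone processing and secretion, 10 had a start peak in WT, 9 after 1 week and 10 after 5 weeks. The missing call after 1 week was Chgb, which encodes the granule protein chromogranin B, with a fold of 4.10 in WT and 4.21 after 5 weeks. Ucn3, a peptide of mature beta cells, had a fold of 2.43, 3.62 and 2.85, and G6pc2, the islet glucose-6-phosphatase, one of 6.87, 3.87 and 5.81.

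Of 5 other hormone genes of the islet, 0 had a start peak in WT, 3 after 1 week and 3 after 5 weeks. Of all protein-coding genes, 59.0% had one in WT, 55.9% after 1 week and 65.6% after 5 weeks. The WT list was the shortest and had the lowest background floor, and the part of depth in these calls was not tested. Gcg, the glucagon gene of alpha cells, had a fold of 2.90 after 1 week and 3.11 after 5 weeks. Ghrl, encoding ghrelin, had 2.996 and 2.66, and Sst, the somatostatin gene of delta cells, 2.21 and 1.99, near the bottom of both lists (15.5 and 10.7 percentile). Ppy and Pyy, which encode pancreatic polypeptide and peptide YY, had no start peak in any list. After 1 week, the Gcg fold was above that of the Ins2 start peak (2.56) and below those of Ins1 and Iapp. That order is one of fold over local background, not of accessibility, and the Ins2 peak at that time was split.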

How the data were processed

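ATAC-seq was performed by the study on dissociated islet cells, 1 library per group. According to the submitters' processing notes, bcl2fastq 2.17.1.14, Bowtie 1.0.0 and MACS2 2.1.1 were used with mm9. All peaks ended within the mm9 chromosome length on 19 of 20 chromosomes with peaks in WT. After 1 week this held for 20 of 20 and after 5 weeks for 21 of 21, and the cause of the WT exception was not tested. The study states that uniquely placed alignments were kept. Use of a control library, duplicate removal and a shift to the insertion site are not given in the sources used here. The deposited lists were called per library by the authors and give, per peak, the fold over local background (a ratio) with its -log10 p and its -log10 q, each a mean over the peak. The score deposited beside them is about 10 times the -log10 q and was not used.

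Peaks overlapping Ins1, Ins2 or Iapp (GENCODE on NCBIM37, which is mm9) with 20 kb on each side were kept, and these 3 genes with all their peaks were the ones named. Other genes were named where their start call differed between lists or where they stood at the top or bottom of their gene list. The members and lists were chosen with earlier results of these data known. Local background and pileup were solved from fold and -log10 p, and the floor was the 1st percentile of backgrounds, a step tested on simulated single values but not on means over a peak. Depth in reads is not held in peak lists, so no counting interval was given. Mitochondrial peaks (2 per list) were left out. Alternatives were a -log10 q minimum of 3 or 5, lists shortened to their 60898 strongest peaks, values scaled to the WT background, flanks of 10 or 50 kb, a start window of 500 bp on each side, ranks by other columns and a reciprocal overlap of 50%. Ranking among start peaks was added after seeing the data. Python 3.11.15, numpy 2.4.6, pandas 2.3.3, scipy 1.17.1 and matplotlib 3.10.9 were used. No p-value was computed.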

Additional observations from a re-analysis of the deposited data

Results flagged for a closer look

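Some values moved in opposite directions from WT after 1 week and after 5 weeks, each in 1 library, and the difference between the times was not tested. The covered length around Ins1 was 4832 bp in WT, 4123 bp after 1 week and 5646 bp after 5 weeks. Around Ins2 it was 3975, 1640 and 5784 bp, and around Iapp 4757, 4650 and 7239 bp. Over all gene windows the summed length was 1.2 times that in WT after 1 week and 1.685 times after 5 weeks, against 0.768 and 1.376 times at the 3 loci. The number of peaks around Ins2 was 3 in WT, 2 after 1 week and 6 after 5 weeks, and at the 3 loci together 14, 9 and 16. The rank of the Ins1 start peak by -log10 q was 1223 in WT, 4320 after 1 week and 215 after 5 weeks. The background floor was 3.66 reads in WT, 6.45 after 1 week and 9.38 after 5 weeks, and the part of depth in these values was not tested.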

How the results depend on the processing

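Of 94 alternative values, 51 kept to the reported value, 36 moved and 7 turned in direction. A count was held to be kept up to a ratio of 1.5, so a kept count need not be an equal one. After 5 weeks, for example, 11 peaks at the 3 loci in equally long lists counted as kept against 16. No paired analysis was possible because each group had 1 library. The number of peaks at the 3 loci fell to 8 in WT at a -log10 q minimum of 3, and to 6 in WT, 4 after 1 week and 8 after 5 weeks with a minimum of 5. After 5 weeks it was 9 after scaling to the WT background and 10 with flanks of 10 kb. WT thus had the most peaks with scaling (14, 8 and 9) and in equally long lists (14, 8 and 11). WT and 1 week had 8 each at a -log10 q minimum of 3, and WT and 5 weeks 10 each with flanks of 10 kb. Regions called in all lists numbered 4 at a -log10 q minimum of 5 and 5 with a reciprocal overlap of 50%. Regions in WT and after 5 weeks alone numbered 1 at a -log10 q minimum of 3, 1 with flanks of 10 kb and 5 with flanks of 50 kb. No region at the 3 loci was called only after 1 week in any setting but the reciprocal overlap, which gave 2.

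The Iapp start peak stood at a higher percentile than in WT in every setting, by 21.6 to 61.5 points after 1 week and 18.6 to 62.0 after 5 weeks. For Ins1 after 1 week the difference of -0.865 points turned to 5.29 when ranked by fold. For Ins2 after 1 week, 7.92 points turned to -35.3 at a -log10 q minimum of 3, -34.1 in equally long lists, -31.8 when scaled and -0.515 among start peaks, and after 5 weeks 18.9 points turned to -7.28 in equally long lists and -14.9 when scaled, so the Ins2 rank has no settled direction. Its start peak had no call after 1 week at a -log10 q minimum of 5. The cause was not tested. Without replicates and read totals, neither the spread between animals nor the precision of a single peak could be given.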
